A study of Mus musculus with 4 samples.

Results

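The regions described here are CTCF sites of mouse limb chromatin that lay away from gene starts and carried no detected cohesin. They were selected on measured peak calls. A member is an autosomal CTCF peak of replicate 1 that shared at least 1 bp with a CTCF peak of replicate 2 and overlapped no RAD21 peak in any of 3 RAD21 lists. Its summit lay more than 1 kb from every protein-coding gene start, and under 50% of its bases were soft-masked, meaning written in lower case in the reference sequence because they were marked as repeated. Of 23829 CTCF peaks in replicate 1, 23433 were autosomal and 20866 of these were also found in replicate 2. RAD21 was absent from all 3 lists at 5983 of them. Removing 714 sites near gene starts and 1008 repeat-rich sites left 4261 members.

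CTCF is a zinc-finger protein that reads a long, directional DNA motif. Cohesin is the ring-shaped complex that extrudes chromatin loops and is held up at CTCF sites, and RAD21 is the subunit that closes the ring. Sites where both proteins are found often mark loop anchors and borders of topologically associating domains (TADs), whereas binding of CTCF without cohesin has been described at a minority of sites in many tissues. In the limb, such borders shape the regulatory landscapes of genes such as those of the HoxD cluster.

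CTCF and RAD21 were profiled by ChIPmentation, a chromatin immunoprecipitation in which sequencing adapters are inserted by Tn5, in whole limbs of embryos at day E12.5. All embryos were of strain B6CBAF1, hemizygous for the transgene (TgN(38-40)/Wt) and homozygous for the deletion (del(CS38-40)-/-). These animals carried 1 copy of the chromosome 10 allele with the inserted CS38-40 region, a random integration of a fosmid transgene, and lacked that region on both copies of chromosome 2. Each antibody, Anti-CTCF of Active Motif and Anti-RAD21 of Abcam, was used in 2 biological replicates, and the third RAD21 list came from a single wild-type limb ChIP-seq library of an earlier study. Whole limbs hold mesenchyme, ectoderm, muscle precursors, blood and nerve, and fewer cells binding a factor and weaker binding per cell cannot be told apart. The 2 inputs come without peak lists. None of the lists gives read counts, so the depth is unknown.

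The RAD21 lists differed in size, from 4102 peaks for replicate 1 to 14787 for replicate 2 and 20874 for the wild-type library, while CTCF had 23829 and 26264 peaks. A site without a RAD21 peak is therefore a site below the calling threshold in those libraries, which does not show that cohesin was absent. Over all 20866 reproducible autosomal CTCF sites, 28.7% had no RAD21 peak. Among the 17705 that were distal and repeat-poor, the share was 24.1%, and the other 13444 sites overlapped a RAD21 peak in at least 1 list. These 13444 are called sites with cohesin below. They comprised 2878 sites found in 1 RAD21 list, 7158 in 2 lists and 3408 in all 3. The sites in a single list comprised 2551 of the wild-type list, 327 of replicate 2 and 0 of replicate 1. The wild-type list weighed most, since the rule without it would give 6812 members, 38.5% of distal sites. Because sites are not replicates, no p-value was computed over them. With 2 CTCF libraries the smallest two-sided p that an exact sign-change permutation could give is 0.5, so every comparison is given as the value in each replicate.

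The members' binding sites are shown first as sequence. A CTCF motif model of 19 bases was learned from 2000 other CTCF peaks, and its consensus was CGGCCACCAGGGGGCGCTA. Sequences are from GRCm38 (mm10), written 5′ to 3′ on the strand of the motif, with 25 bases before the best match and 10 after it. Capitals mark the match. The 6 members shown have the best ranks of CTCF fold in both replicates among members with a match outside protein-coding exons.
Gm15319 site, chr8:20424856-20424909, minus strand: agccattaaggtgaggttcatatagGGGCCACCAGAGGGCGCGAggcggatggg
Kcnk1 site, chr8:126075579-126075632, plus strand: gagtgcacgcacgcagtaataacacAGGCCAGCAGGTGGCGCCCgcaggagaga
Nemf site, chr12:69360806-69360859, minus strand: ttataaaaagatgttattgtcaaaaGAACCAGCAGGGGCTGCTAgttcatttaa
Lbx1 site, chr19:45244483-45244536, minus strand: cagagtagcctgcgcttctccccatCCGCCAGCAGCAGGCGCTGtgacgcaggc
Tbc1d9b site, chr11:50114494-50114547, plus strand: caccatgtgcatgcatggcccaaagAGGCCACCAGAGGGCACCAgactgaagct
Csk site, chr9:57645683-57645736, minus strand: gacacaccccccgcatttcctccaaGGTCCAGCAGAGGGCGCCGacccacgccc

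For comparison, 4 of the strongest sites with a RAD21 peak in all 3 lists are shown in the same way.
B3galnt2 site, chr13:13889631-13889684, plus strand: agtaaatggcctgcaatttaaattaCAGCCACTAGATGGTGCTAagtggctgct
Glrx3 site, chr7:137478445-137478498, plus strand: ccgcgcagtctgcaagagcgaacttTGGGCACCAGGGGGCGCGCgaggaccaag
Zmynd11 site, chr13:9846994-9847047, minus strand: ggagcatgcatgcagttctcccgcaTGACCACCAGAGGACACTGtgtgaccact
Irx1 site, chr13:71458549-71458602, plus strand: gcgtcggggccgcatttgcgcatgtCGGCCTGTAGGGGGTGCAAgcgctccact

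The members were weaker CTCF sites than the sites with cohesin. Their median fold enrichment, the ratio of the pileup at a summit to the local expectation, was 6.01 in CTCF replicate 1 and 7.06 in replicate 2. At sites with cohesin it was 7.09 and 8.90. The ratio of the medians was 0.847 in replicate 1 and 0.793 in replicate 2, a mean of 0.820 ± 0.0386 (SD, n = 2), so the difference had the same direction in both libraries and was larger than the spread between them. The distributions overlapped widely. The middle 50% of members lay between 5.12 and 7.07 in replicate 1 and between 5.82 and 8.64 in replicate 2, and 75.3% and 78.1% of members lay below the median of the sites with cohesin.

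CTCF enrichment rose with the number of RAD21 lists that held a peak. In replicate 1 the medians were 6.01, 6.48, 7.00 and 7.82 for sites in 0, 1, 2 and 3 lists, and in replicate 2 they were 7.06, 7.88, 8.86 and 9.94. Both libraries gave the same order. The member peaks were also narrower, with a median width of 264 bp against 330 bp. CTCF enrichment and the chance that RAD21 passes the threshold of a list moved together at these sites, and their part in each other was not tested.

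**Figure D1:**
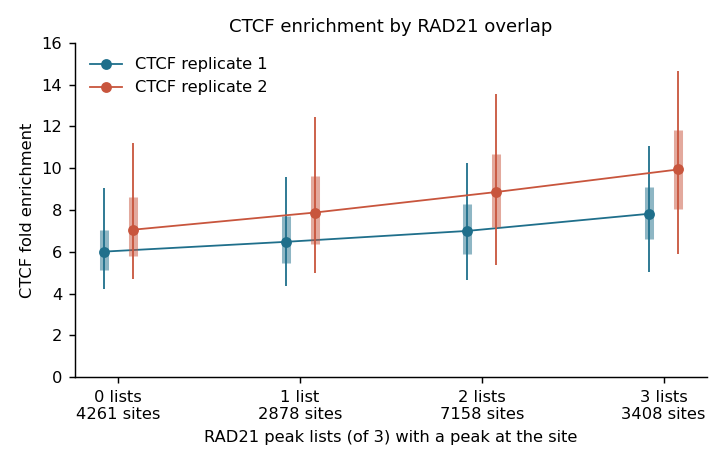
CTCF fold enrichment (vertical axis, ratio) at distal repeat-poor CTCF sites, grouped by the number of RAD21 lists with a peak at the site (horizontal axis), for both CTCF replicates. Points are medians, thick bars the middle 50% and thin lines the 5th to 95th percentile of sites; the median is lowest at 0 lists and highest at 3 lists in both replicates.

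The share of sites without cohesin fell as CTCF enrichment rose. In the weakest decile of distal sites by CTCF replicate 1, 42.8% had no RAD21 peak, against 8.75% in the strongest decile. Ranked by replicate 2, the share fell from 47.3% to 6.78%. It was lower in each decile than in the decile of weaker sites before it, in both replicates. The RAD21 lists behaved alike in direction: from the weakest to the strongest decile of replicate 1, the share of sites with a peak rose from 7.85% to 39.1% for RAD21 replicate 1, from 38.3% to 82.6% for replicate 2 and from 56.1% to 89.8% for the wild-type library. Strong CTCF sites without cohesin nevertheless existed. Of the 787 sites in the strongest decile of both replicates, 56, or 7.12%, were members.

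**Figure D2:**
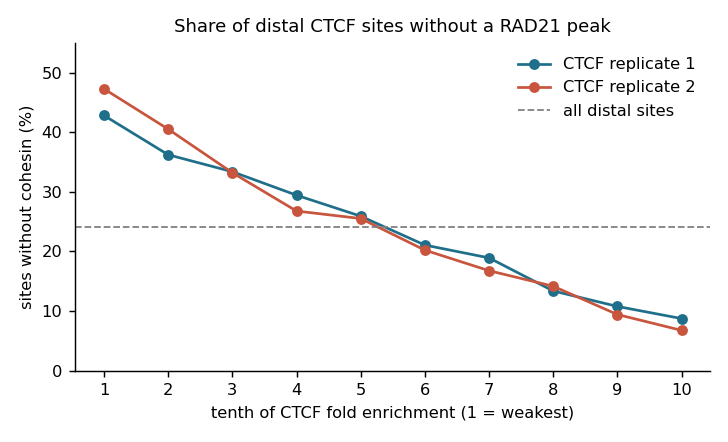
Share of distal repeat-poor CTCF sites with no RAD21 peak in any of 3 lists (vertical axis, percent) in each decile of CTCF fold enrichment (horizontal axis, 1 is weakest), for the 2 CTCF replicates. The dashed line is the share over all sites, and the lines fall from 42.8% and 47.3% to 8.75% and 6.78%.

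The CTCF motif was found at most members. Within 50 bp of the replicate 1 summit, a match at the score that 5% of flanking windows reach was present at 2150 of 4261 members, or 50.5%, against 54.9% of sites with cohesin and 5.55% of the windows that flanked members. This window was narrow for these data, since the summits of both replicates lay a median of 43 bp apart at members and 42 bp at sites with cohesin. Within 100 bp of the mean of both summits, a setting chosen after the values were seen, 3717 members had a match. That was 87.2% of members and 94.3% of sites with cohesin, beside 92.6% of all distal sites and 5.53% of the flanks of members. The matches below are those of this wider window.

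The motif matches of members scored like the others. The median score of a match was 16.9 in both classes, and 13 of the 19 letters equalled the consensus at the median member, against 12 at the median site with cohesin. In this window members had fewer matches than sites with cohesin in all 5 quintiles of CTCF enrichment of both replicates. In the strongest quintile of CTCF replicate 1, 92.2% of members and 96.8% of sites with cohesin had a match, and in the weakest quintile 83.5% and 89.7%. By replicate 2 the same shares were 92.0% and 96.5% in the strongest quintile and 84.7% and 89.5% in the weakest. Within 50 bp of the replicate 1 summit the order was not the same throughout: members had the higher share in 2 of the 5 quintiles of replicate 1, at 49.6% against 48.4% in the second weakest and 59.1% against 57.0% in the second strongest, and the lower share in all 5 of replicate 2. The motif lay on the plus strand at 50.5% of the members with a match.

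Although the scores were alike, the letters differed. Position 12, counted from 1 at the first base of the match, held T in 20.96% of member matches and in 39.6% of matches with cohesin. G took its place, at 74.3% of members and 57.2% of sites with cohesin. The share of T rose with the number of RAD21 lists, from 20.96% through 32.1% and 38.9% to 47.2%. It was lower without a peak than with one for each RAD21 list taken alone, at 32.5% against 47.1% for replicate 1, 25.1% against 41.4% for replicate 2 and 22.1% against 39.7% for the wild-type library. By the rule, all 3717 member matches are in each group without a peak, which for the wild-type library held 4029 matches. The values by list are therefore not separate from the member share. The share of T was also lower in members in all 5 quintiles of CTCF enrichment in both replicates, so it was seen among sites of like strength: 21.6% against 38.4% in the strongest quintile of replicate 1, and 21.1% against 43.1% in the weakest. Of the sites with T at this position, 13.4% were without cohesin, against 27.6% of those with G.

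Position 7 held C in 48.6% of member matches and G in 45.6%, against 61.5% and 34.7% at sites with cohesin. The strongest members printed above show both forms, CCACCAG and CCAGCAG. Positions 15 and 16 together held CG, a dinucleotide that can be methylated, in 45.8% of member matches and in 34.3% of matches with cohesin. In the strongest quintile of replicate 1 the shares were 52.4% and 41.5%, and in the weakest 42.3% and 28.6%. Methylation was not measured in these libraries. Base content around the summits was close in both classes, with a median GC content of 49.8% and 49.3% in 201-base windows and a median of 3 CG dinucleotides in each.

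A second element set some members apart. It was noticed in the 544 members without a match, where the 7 letters TGCAGTA (or their reverse complement TACTGCA) were present within 75 bp of the mean summit in 9.19%, against 1.10% of their flanks. At the 768 sites with cohesin that had no match, these 7 letters were present in 4.69%. The letters TGCAGTNCC, where N is any base, were then searched for in the 40 bases before the match at the other members, on the strand of the motif. They were found at 325 of 3717 member matches, or 8.74%, and at 271 of 12676 matches with cohesin, or 2.14%, beside 3.64% of all matches. At sites without a match the classes were closer. There the letters lay within 100 bp of the mean summit, on either strand, at 8.46% of members and 5.99% of sites with cohesin. In the 40 bases after the match they were found at 0.0807% of members, and on the opposite strand before the match at 0.108%. Within the bases searched, which leave out the match itself, the element lay on the side before the motif, and its spacing varied little. The shorter form TGCAGT ended 8 bases before the match at 411 of the 534 members that held it and 9 bases before it at 76, whereas at sites with cohesin the shares of those spacings were 52.1% and 26.0%.

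The following members hold the element and are shown because spacing, side and motif can be read from them. They have the best ranks among such members outside protein-coding exons, and capitals mark the element and the match.
Dkk2 site, chr3:131886652-131886705, minus strand: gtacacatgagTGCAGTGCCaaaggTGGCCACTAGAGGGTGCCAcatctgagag
Vps8 site, chr16:21470601-21470654, minus strand: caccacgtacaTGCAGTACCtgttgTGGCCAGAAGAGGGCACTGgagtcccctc
Ptf1a site, chr2:19414615-19414668, plus strand: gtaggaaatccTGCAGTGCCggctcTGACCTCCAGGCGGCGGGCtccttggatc
Lad1 site, chr1:135811422-135811475, plus strand: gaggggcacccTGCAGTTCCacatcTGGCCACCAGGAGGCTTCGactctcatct
Thra site, chr11:98754823-98754876, minus strand: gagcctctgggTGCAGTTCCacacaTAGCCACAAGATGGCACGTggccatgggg

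The Dkk2 site had a CTCF fold of 9.55 in replicate 1 and 13.7 in replicate 2. It lay in an intron of Gm29865, a long non-coding RNA gene, 198624 bp upstream of the start of Dkk2, which encodes a secreted Wnt pathway modulator. The Vps8 site had folds of 10.7 and 11.9 and lay in an intron of Vps8, an endosomal trafficking gene. The Thra site had folds of 8.95 and 13.4 and lay in an intron of Thra, the thyroid hormone receptor alpha gene. The Ptf1a and Lad1 sites lay outside genes, with folds of 9.28 and 11.7 and of 9.92 and 11.6. A RAD21 peak lay only 172 bp from the Ptf1a site. At the Dkk2, Vps8, Lad1 and Thra sites the nearest was at least 17675 bp away.

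Where the element was present, RAD21 was found less often. Of the 596 distal sites with the element before the match, 54.5% were without cohesin, against 21.5% of the 15797 matches that lacked it. This share differed with the soft-masking of the match, as given below. The share with the element was 8.74%, 2.69%, 2.01% and 1.95% for sites in 0, 1, 2 and 3 RAD21 lists. Each RAD21 list alone gave this direction, with 4.05% of sites lacking a peak against 1.98% of sites with one for replicate 1, 6.31% against 2.06% for replicate 2 and 8.41% against 2.08% for the wild-type library. All members are among the sites lacking a peak in each list, so these values are not separate from the member share. The members with the element had median CTCF folds of 6.20 and 7.36 in the 2 replicates, beside 6.04 and 7.09 for members with a match but no element. At sites with cohesin these medians were 7.73 and 9.99 with the element and 7.13 and 8.95 with a match but no element. In the strongest quintile of CTCF replicate 1 it was present at 8.78% of member matches and 3.07% of those with cohesin, and in the weakest at 7.28% and 1.197%.

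The element went with soft-masked sequence. At least 50% of the 19 bases of the match were soft-masked at 578 members, or 15.6% of matches, against 6.29% of matches with cohesin and 8.39% of all. Of the 325 members with the element, 225 had a soft-masked match. Among soft-masked matches the element was present at 38.9% of members and 12.2% of sites with cohesin. Among unmasked matches it was present at 3.19% and 1.46%. The gap at position 12 was seen in both kinds of match, with T at 6.23% of members against 15.2% of sites with cohesin where the match was masked and 23.7% against 41.2% where it was not. At position 7, G was at 87.7% of masked member matches against 70.5% of those with cohesin. Among unmasked matches the gap there was smaller, at 37.9% against 32.3%. Over 59 bases around the match, 21 of the 3717 member matches were identical in sequence to another, in groups of at most 3. Copies of a repeat that differ at any base are not counted by this, so a shared repeat origin was not tested. Of all masked matches 42.0% were members, against 20.9% of unmasked ones. Where the element was present, members were 69.9% of 322 masked matches and 36.5% of 274 unmasked ones. The repeat filter of the rule bore on these shares. With under 25% of peak bases soft-masked, the element was present at 2.87% of member matches against 1.44%, and with no repeat filter at 15.2% against 2.78%. Soft-masked matches were 5.04% of member matches against 4.00% in the first setting, a small gap, and 29.8% against 8.24% in the second. Whether reads could be placed equally well at masked matches was not tested.

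**Figure D3:**
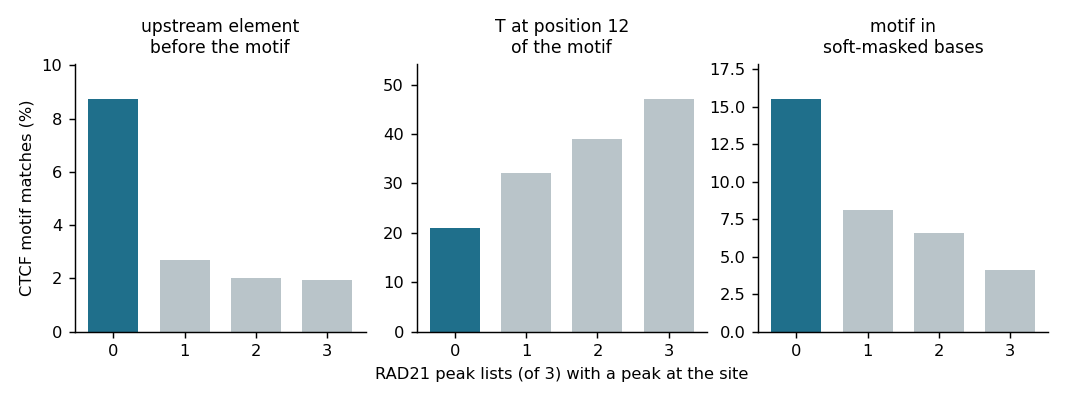
Share of CTCF motif matches (vertical axes, percent) that have the upstream element in the 40 bases before them (left), T at position 12 (middle) or at least 50% soft-masked bases (right), by the number of RAD21 lists with a peak at the site (horizontal axis). Members are the dark bars at 0 lists, where the element and masking are most common and T is least common.

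The 544 members without a match held pieces of the CTCF motif. The letters GCGCCCC, whose reverse complement GGGGCGC is part of the consensus, were present within 75 bp of the mean summit at 15.1% of them and at 1.10% of their flanks. The letters CCACTAG were present at 11.6% and 1.01%. At the 768 sites with cohesin that had no match, the shares were 5.599% and 7.42%. Of all 1312 distal sites without a match, 41.5% were members. These letters were ranked on the members themselves, so they are a description.

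By position, members were more often inside genes. They lay outside genes in 39.6% of cases, against 46.9% of sites with cohesin and 45.1% of all distal sites. Only protein-coding and long non-coding RNA genes were counted, so a summit in a gene of another type is placed outside genes. Introns of protein-coding genes held 1939 members, or 45.5%, against 40.4%. Exons of protein-coding genes held 408, or 9.58%, against 6.61%, which made them the position with the highest share of members, 31.5%. Within these, 190 member summits lay in coding sequence, 151 in untranslated regions and 67 in exons of non-coding transcripts of the gene. Among all distal sites in coding sequence 38.1% were members. Long non-coding RNA genes held 47 members in exons and 178 in introns, at 1.10% and 4.18% of members, and introns of these genes held 4.94% of sites with cohesin. The median CTCF fold of members in replicate 1 was 5.94 in exons and 5.95 in introns of protein-coding genes and 6.08 outside genes, and 5.91 and 6.16 in exons and introns of long non-coding RNA genes. In replicate 2 these medians were 6.93, 7.07, 7.07, 6.69 and 7.29.

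**Figure D4:**
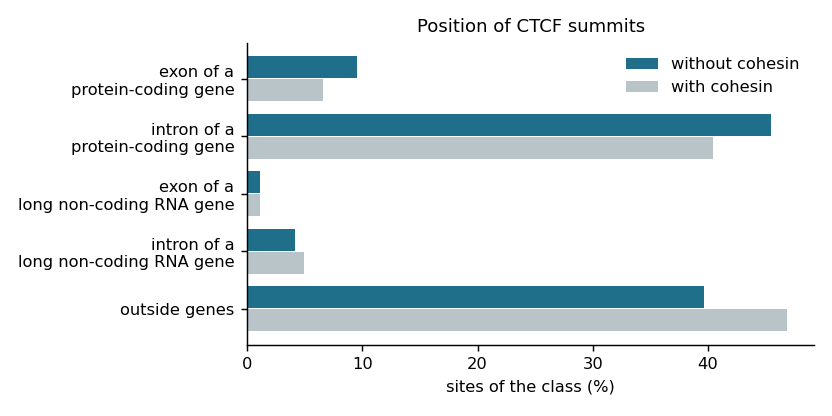
Position of the CTCF summit in the GENCODE annotation for members (dark) and sites with cohesin (light), as a percent of each class (horizontal axis). Members have longer bars for exons and introns of protein-coding genes and a shorter bar outside genes, 39.6% against 46.9%. Outside genes means outside protein-coding and long non-coding RNA genes.

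Members also lay somewhat closer to genes, although the rule had removed sites within 1 kb of a start. The median distance from a member to the nearest protein-coding gene start was 23233 bp, against 28740 bp for sites with cohesin. The share of sites without cohesin was 29.0% at 1 to 2 kb, 28.0% at 2 to 5 kb and 28.5% at 5 to 10 kb, and 21.7% beyond 100 kb. A start of another protein-coding transcript lay within 1 kb of 161 members, or 3.78%, against 2.12% of sites with cohesin. Long non-coding RNA gene starts were within 1 kb at 2.04% and 2.31%.

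The members were spread over all autosomes. Their share of distal sites ranged from 18.9% on chromosome 3 to 30.6% on chromosome 5, and their density from 1.03 per Mb on chromosome 3 to 2.77 per Mb on chromosome 11. In the order of distal sites along the chromosomes, 56.6% of members had no other member next to them and 27.1% came in pairs. Members were 24.1% of these sites. The shares that a random order would give were not computed, so these values do not show grouping. The next reproducible CTCF site without RAD21 lay a median of 62899 bp from a member and 84380 bp from a site with cohesin, and was within 10 kb at 13.9% and 9.83%. The next reproducible CTCF site of any kind was also closer to members, at medians of 16878 bp and 20459 bp. It was within 10 kb at 34.5% and 31.5%, so these distances do not show grouping of members either. The longest runs held 6 members, and there were 3 of them. The run on chromosome 4 spanned 219 kb beside Igsf21 and Klhdc7a, and that on chromosome 6 spanned 399 kb in a cluster of zinc-finger genes that includes Zfp777 and Zfp956. That on chromosome 14 spanned 1433 kb, and the protein-coding gene starts nearest to its members were those of Olfr1513, Olfr1507 and Dad1. Genes of other types in that stretch were not looked up.

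The rule removed sites that overlap RAD21 in these same lists, so the gaps from members to RAD21 peaks are a description of its result. The median gap from a member to the nearest RAD21 peak of any list was 20104 bp. A RAD21 peak lay within 200 bp of 57 members, within 1 kb of 203, or 4.76%, and within 10 kb of 1334, or 31.3%. By list, the median gap was 116833 bp for RAD21 replicate 1, 26948 bp for replicate 2 and 21497 bp for the wild-type library, an order that follows the number of peaks in the lists. The next reproducible CTCF site with cohesin lay a median of 25882 bp from a member, and the next one from a site with cohesin lay 30282 bp away. Such a site was within 10 kb of 24.2% of members and 24.15% of sites with cohesin.

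**Figure D5:**
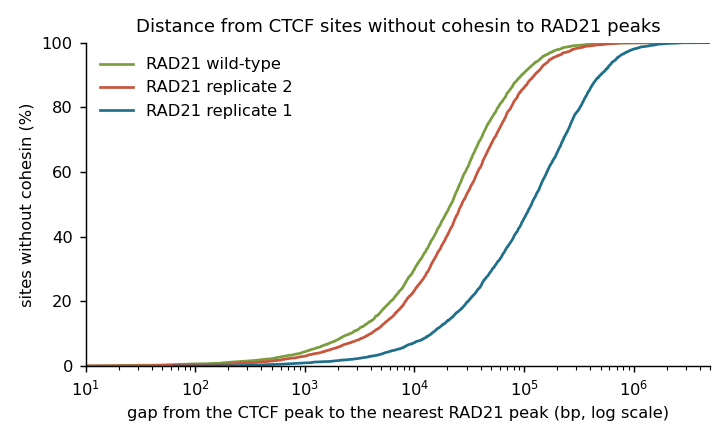
Cumulative share of members (vertical axis, percent) by the gap in bp to the nearest RAD21 peak (horizontal axis, log scale), for each RAD21 list. The lines stay under 5% up to 1 kb and pass 50% at 21497 bp for the wild-type list, 26948 bp for replicate 2 and 116833 bp for replicate 1.

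The same libraries mapped to the TgN(38-40) custom genome, with all reads kept, gave a second set of peak calls. They were compared where coordinates equal those of mm10, which left 3997 members. Both CTCF replicates had a peak there at 96.3% of these members and 98.7% of sites with cohesin. A RAD21 peak appeared at 33 members, or 0.826%, of which 32 were in replicate 2 and 1 in replicate 1. At sites with cohesin the share was 78.2%, and over all distal sites 59.6%. The custom genome lists hold no wild-type RAD21 library, and 2551 of the 13444 sites with cohesin had their mm10 peak in the wild-type list alone. The share of 78.2% is therefore not a measure of peaks lost between the mappings. The 32 new peaks of replicate 2 had a median -log10 q of 4.34 and a range of 2.16 to 13.4, where the lowest value in the mm10 lists was 1.30. This comparison reuses the same reads and is no new replicate.

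The members just inside the rule show how narrow its edges were. The closest gene start to a member was 1001 bp away, and the farthest among sites left out was 993 bp away. The highest masked share among members was 49.9%, and the lowest among sites left out was 50%. The smallest gap to a RAD21 peak was 0 bp, where both peaks touched without sharing a base. CTCF itself was well above its threshold at most members: 2763, or 64.8%, had a -log10 q of at least 5 in both replicates, against 85.3% of sites with cohesin.

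Ranks of CTCF fold were taken within each replicate among the 17705 distal sites, and the strongest members are those whose worse rank was best. The first was an intergenic site on chromosome 8 at 20424731 to 20425060, 61645 bp upstream of the predicted gene Gm15319. Its fold was 19.8 in CTCF replicate 1 and 21.9 in replicate 2, and its worse rank was 2. A RAD21 peak of replicate 2 with a fold of 5.66 was called there on the custom genome, so the absence of RAD21 at this site depended on the mapping. The CTCF folds depended on it too, at 12.52 and 16.03 on the custom genome. Another strong member, with folds of 16.4 and 15.7, lay at 20389362 to 20389576 in an intron of Gm26804, a long non-coding RNA gene, in the same neighbourhood. On the custom genome its folds were only 6.37 and 6.93.

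The Kcnk1 site lay outside genes, 80425 bp past the start of this potassium channel gene, and had folds of 13.7 and 19.3. A RAD21 peak was 5589 bp away. The Nemf site, 3659 bp upstream of a gene of ribosome quality control, had folds of 12.49 and 21.1. It had a RAD21 peak of replicate 1 only 328 bp away and one over the site on the custom genome, with a fold of 4.16. The Dus3l site, 1225 bp upstream of a tRNA dihydrouridine synthase gene, had folds of 12.4 and 19.7 and no motif match.

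The Lbx1 site lay 8685 bp upstream of Lbx1, a homeobox gene of migrating limb muscle precursors. Its folds were 13.96 and 16.1, its motif is printed above, and the nearest RAD21 peak was 22667 bp away. The Tbc1d9b site had folds of 11.6 and 17.7 and the Csk site, in an intron of the gene of this Src-inhibiting kinase, had folds of 10.7 and 14.1. The Zcchc4 site, in an intron, had folds of 11.4 and 14.1 and no match. The others of the first 12 were near Nts, with folds of 13.2 and 13.96, Sfi1, with 10.6 and 14.4, and Pik3r5, with 12.02 and 13.9. The place of the Sfi1 site rested on the mapping, since its folds on the custom genome were 4.24 and 5.69. In 9 of the 12 a match was present, beside 87.2% of all members, and 12 sites are too few to compare with that share.

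Members near genes of limb development were counted from lists of genes. The limb patterning list has 60 genes, and 112 distal sites had one of them as the nearest protein-coding gene start. Of these sites 31, or 27.7%, were members, beside 24.1% of all distal sites, and they fell at 23 of the 43 genes with a site. The muscle list had 6 members among 21 sites, the blood list 4 among 6 and the nerve and glia list 2 among 14. These counts are small, and peaks do not show which cells of the limb carried them.

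The member closest to a limb gene start lay in the coding sequence of Hoxd10, a gene of digit and forearm patterning, at chr2:74694114-74694342. It was 2271 bp downstream of the start. Its fold was 4.03 in CTCF replicate 1 and 10.6 in replicate 2, so the replicates ranked it very differently, at 17452 and 4022. The Hand2 member lay 6530 bp upstream of Hand2, a factor of the posterior limb bud, in an exon of the divergent transcript gene Hand2os1. Its folds were 8.22 and 8.68, and no match was found. The Irx5 member, in an intron of this homeobox gene, had folds of 4.76 and 6.33.

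The Pitx1 member lay 34048 bp upstream of Pitx1, the hindlimb identity gene, in an intron of Gm47071, a long non-coding RNA gene. Its folds were 9.51 and 8.12, and the nearest RAD21 peak was 92704 bp away. The Tbx3 member, 21957 bp downstream of the start of this T-box gene, had folds of 4.90 and 5.88 and a RAD21 peak only 981 bp away. The Ihh member lay in an intron of Nhej1, 49112 bp upstream of the start of Ihh, a hedgehog ligand of cartilage, and had folds of 5.84 and 8.80. The Grem1 member lay in an intron of Fmn1, 110338 bp downstream of the start of this BMP antagonist gene, with folds of 6.402 and 5.78. The Bmp2 and Bmp7 members, near genes of BMP ligands, had folds of 4.46 and 5.86 and of 6.25 and 8.53. The Sall4 member was stronger, at 8.77 and 9.51.

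The HoxD locus and its flanking landscapes held 21 reproducible CTCF sites, of which 6 were members and 14 were distal sites with cohesin. Members were 24.1% of all distal repeat-poor sites, and counts this small do not set the locus apart. The member there with the highest CTCF fold in replicate 1 lay in an untranslated exon of Evx2, the homeobox gene beside Hoxd13, at chr2:74655362-74655975. Its fold was 9.22 in replicate 1 and 8.78 in replicate 2, and the nearest RAD21 peak was 5752 bp away. The member at chr2:74686336-74686672, in an exon of a non-coding transcript at Hoxd11, had folds of 5.19 and 10.9. The Hoxd10 member described above was the third in or beside the cluster, and in replicate 2 it and the Hoxd11 member had higher folds than the Evx2 member. Sites that held RAD21 lay between and beside these 3, such as the site 1876 bp upstream of Hoxd12 at chr2:74673013-74673407, with CTCF folds of 10.5 and 17.3.

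The other 3 HoxD members lay in the landscapes. On the centromeric side, chr2:74305900-74306028 in an intron of 4930441J16Rik had folds of 5.596 and 6.71. On the telomeric side, chr2:75208337-75208559 in an intron of 2600014E21Rik had folds of 6.39 and 5.96 and lay 55572 bp from the nearest RAD21 peak, and chr2:75318249-75318377, outside genes, had folds of 5.09 and 8.54. No member lay in region CS38-40. The site at chr2:75152577-75152760 came closest, with CTCF folds of 5.36 and 5.01 and a RAD21 peak in the wild-type list alone, at a fold of 2.33. This stretch is deleted on both copies of chromosome 2 in these embryos, so its CTCF reads came from the transgene. The wild-type RAD21 peak was that of the native chromosome 2 locus, so the CTCF and RAD21 values belong to different places. Neither RAD21 replicate of the transgenic limbs had a peak at this site. In the part of the host TAD to the left of the insertion on chromosome 10 there were 3 reproducible CTCF sites, and 0 of them were members. That is too few sites to compare with the share of 24.1% over all distal sites.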

How the data were processed

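CTCF and RAD21 peak lists of E12.5 limbs, 2 replicates per antibody, and 1 wild-type RAD21 list were used. Per the study's methods and the submitters' processing notes, the authors aligned reads to mm10 or the custom genome, and peaks of each replicate were called separately by MACS2 2.1.1.20160309 with default settings. The deposited fold enrichment is a ratio of pileup to local expectation, and the deposited lists also give the p-value and q-value of each peak as -log10. The control given to MACS2 is not given in the sources used here. Folds were compared within a list only.

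The members and gene lists were chosen with earlier results of these data known. Overlap, distance to GENCODE M21 gene starts and soft-masking in GRCm38 were computed with matplotlib 3.10.9 (figures), samtools 1.23.1, pysam 0.24.0, pandas 2.3.3, scipy 1.17.1 and numpy 2.4.6 in Python 3.11.15. The program behind the soft-masking is not given in the sources used here. The motif model came from 2000 strong CTCF peaks of replicate 2 outside both classes, under 50% soft-masked, and its threshold was the score that 5% of windows 500 bp away reach. The 100 bp window, the upstream element, position 12 and the masking of the match were chosen after the values were seen. Sites named are the 12 members with the best worse rank of CTCF fold, the closest member for limb genes (some are not reported here), sites of the HoxD locus, region CS38-40 and the host TAD, and the sequences printed. No depth is known, and 0 columns of other samples were left out. Overlap and motif functions were tested on simulated data.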

Additional observations from a re-analysis of the deposited data

How the results depend on the processing

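No paired analysis was possible because the replicates of CTCF and RAD21 are separate libraries of 1 genotype and no result comes from a test. Without the wild-type RAD21 list there were 6812 members and 38.5% of distal sites were without cohesin. At a CTCF -log10 q of at least 5 there were 2763 members, a share of 19.4% and a fold ratio of 0.865, and with -log10 q in place of fold the ratio was 0.663. The share without cohesin was 26.0% with 50% reciprocal overlap, 25.4% with RAD21 -log10 q of at least 5, 21.6% under 25% soft-masked, 27.6% with no repeat filter and 25.2% on the custom genome. It ranged from 24.1% to 29.3% when a replicate was left out. The motif share of members was 78.7% within 100 bp of the replicate 1 summit, 63.6% within 50 bp of the replicate 2 summit and 87.2% around the mean summit, and was below that of sites with cohesin in each of 19 settings.

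The upstream element was present at 7.51% of member matches with reciprocal overlap, 6.33% without the wild-type list, 8.09% on the custom genome, 2.87% under 25% soft-masked and 15.2% with no repeat filter, and at 7.73% to 8.74% when a replicate was left out. The share of soft-masked matches was 13.7%, 12.6%, 14.1%, 5.04% and 29.8% in the same settings, 13.9% at CTCF -log10 q of at least 5, and 15.1% to 16.8% when a replicate was left out. At sites with cohesin it was 4.00% under 25% soft-masked and 8.24% with no repeat filter, so the gap was small under the stricter filter. T at position 12 was at 23.3% with reciprocal overlap, 25.1% without the wild-type list, 23.3% under 25% soft-masked and 18.2% with no repeat filter, and at 20.7% to 22.1% when a replicate was left out. Each of these 3 shares kept its direction against sites with cohesin in all 14 settings.

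Members outside genes were 39.8% with reciprocal overlap, 40.5% without the wild-type list, 39.3% and 39.8% at -log10 q of at least 5 for CTCF and RAD21, 40.5% at 5 kb from gene starts, 41.2% with all transcript starts, 38.5% and 39.9% under 25% soft-masked and with no repeat filter, 39.5% with no RAD21 summit within 500 bp, 41.1% on the custom genome and 39.6% to 40.1% when a replicate was left out. The cause of these shifts was not tested. Leaving out RAD21 peaks of the custom genome as well left 4228 members.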
